A study of Mus musculus with 6 samples.

Results

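The normal acinar transcriptome was described in the control group of a study of TRIP12, an E3 ubiquitin ligase. The group was chosen by its genotype label alone and comprised 3 of the 6 acinar libraries of the series. All 3 came from adult, untreated mice labelled Pdx1Cre;Trip12+/+, which carry a Cre recombinase driven by the Pdx1 promoter, active in the pancreatic epithelium, together with intact Trip12. The controls therefore carry Cre, and no library without Cre was among those used here. Sex, strain, age in weeks and the way the cells were isolated are not given in the sources used here, and the other 3 libraries, from Trip12 knockout animals, were not used. Polyadenylated RNA was sequenced, and 1 library was made per preparation. The labels number the preparations as biological replicates without saying whether each came from a separate animal, so the SD values below measure the spread between 3 preparations, part of which may be technical.

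Acinar cells form the bulk of the exocrine pancreas. They make digestive enzymes, most of them as inactive zymogens, on the rough endoplasmic reticulum, pass them through the Golgi apparatus into zymogen granules, and release the granules into the duct system when cholecystokinin or acetylcholine raises cytosolic calcium. The zymogen genes are switched on by the PTF1 complex, formed by Ptf1a, a ubiquitous partner of the E-protein class and Rbpjl, and the cell's secretory structure is maintained by Bhlha15, also called Mist1, and Xbp1.

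Levels are given on 3 scales. The share of counts is a gene's percentage of all gene counts of a library. Outside the enzymes, values are CPM, counts scaled to a library total of 1000000, where the total is that of the counts left once the digestive enzyme genes are taken out, so that a gene's value does not depend on the enzymes. The per-length level divides each count by the exonic length of the gene and scales every library to the same total (TPM). Of the 3 scales only this one compares one gene with another. Exonic length counts every annotated exon of a gene, so an order per length can change where the main transcript is shorter. Because these are bulk samples, fewer cells of a type and less RNA per cell cannot be told apart.

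The labelled cell type was checked first against 5 acinar markers. Ctrb1, a chymotrypsinogen, ranked first of all genes per length at 191548 TPM ± 3599 (SD, n = 3). Cela2a, a proelastase, ranked 3rd per length, Pnlip, the pancreatic triglyceride lipase, 6th, and Cpa1, a procarboxypeptidase, 9th. Bhlha15 had 5173, 6139 and 7045 counts in libraries 1 to 3, or 78.8 TPM ± 8.43 (SD, n = 3). All 5 markers were thus high in all 3 libraries. Trip12 had 921, 544 and 727 counts, and Pdx1, whose promoter drives the Cre, had 120, 114 and 107.

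Library 1 stood apart from the other two. Of 8557 genes outside the enzymes with at least 10 CPM, 391 (4.57%) lay over 2-fold above both other libraries in library 1, against 10 in library 2 and 12 in library 3. Library 1 was the highest of the 3 in 55.5% of these genes, and library 2 the lowest in 38.4%. These shares depend on the total outside the enzymes, of which granule and regenerating proteins held 21.5%, 28.0% and 26.9% in libraries 1 to 3. They were not recomputed with another scaling. Library 1 also differed in the genes that tell the sexes apart, with 1205 counts over the 4 Y-linked genes Ddx3y, Eif2s3y, Kdm5d and Uty and 3 counts of Xist, the RNA that silences one X chromosome. Libraries 2 and 3 had 1 and 3 counts over the Y-linked genes and 2118 and 2440 counts of Xist. Markers of blood, vessel and connective tissue cells were higher in library 1 as well, with values given below. Sex and the other differences of library 1 cannot be told apart with 1 library on that side. The libraries held 31019500 to 34041901 gene counts each, and 25.98% to 28.4% of all reads mapped to several places and were counted to no gene, which can lower near-identical genes such as the amylases and trypsinogens.

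Most of the counts came from a handful of genes. Digestive enzyme genes held 77.7%, 79.8% and 78.6% of gene counts in libraries 1 to 3, a mean of 78.7% ± 1.09 (SD, n = 3), and 83.3% ± 0.591 on the per-length scale. On the mean over libraries, 8 genes held 50% of all gene counts, 16 held 75% and 302 held 90%. The number needed for 90% was 534 in library 1, 183 in library 2 and 240 in library 3, so library 1 had the flattest distribution. The first 15 genes by share of counts were all enzyme genes, and the same 20 genes filled the first 20 places in all 3 libraries. At the other end, 12411 genes had a mean above 0 and under 1 CPM of all gene counts and together held 0.211% of counts, and 32625 of the 55414 identifiers had no count in any library. At least 1 CPM of all gene counts in every library, termed detected below, was reached by 9270 genes, 9055 of them protein-coding.

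**Figure D1:**
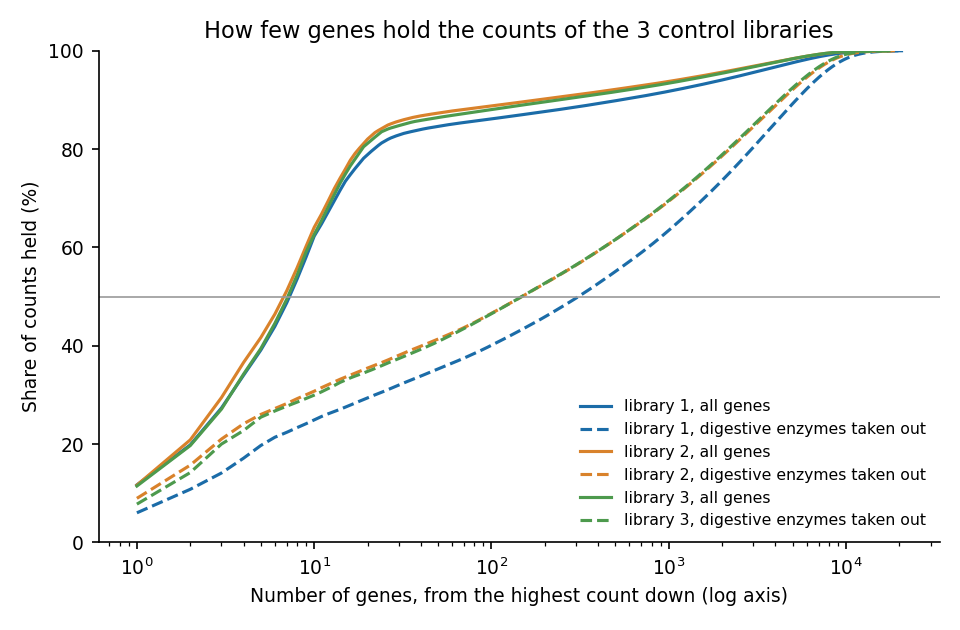
Share of counts held (%) against the number of genes taken from the highest count down (log axis), for all genes (solid) and with the digestive enzymes taken out (dashed), 1 line per library; the horizontal line marks 50%. With all genes the lines cross 50% at 7 or 8 genes, and without the enzymes at 310 genes in library 1 and 149 in libraries 2 and 3.

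Among the enzymes, the serine proteases of the chymotrypsin and elastase families took the largest share, 32.1% of gene counts ± 0.807 (SD, n = 3) and 35.8% ± 0.156 per length. Their zymogens are cut and activated by trypsin in the gut. Ctrb1 held 11.7%, 11.7% and 11.5% of gene counts in libraries 1 to 3, and the libraries were nearly alike, with a mean of 11.6% ± 0.123. Cela2a held 8.14%, 9.20% and 8.23%, highest in library 2. Cela1, another proelastase, held 6.67%, 7.15% and 7.42%, and Cela3b held 2.47%, 2.53% and 2.52%. Ctrl, a chymotrypsin-like protease, held 1.85%, 1.85% and 2.28%, highest in library 3. Ctrc, the chymotrypsin that degrades trypsinogen, held 0.344%, 0.377% and 0.282%. Cela3a was the exception in this family, with 171, 183 and 643 counts and a mean of 15.3 TPM beside 21829 TPM for its neighbour in name, Cela3b.

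The trypsinogens, whose product trypsin activates the other zymogens, held 14.7%, 14.2% and 13.2% of gene counts, a mean of 14.03% ± 0.747 (SD, n = 3). Of the 12 listed genes, all on chromosome 6, only 4 held more than 0.1% of counts each. Prss2, the second gene of all per exonic length at 82582 TPM ± 2356, held 4.52%, 4.64% and 4.79%. Its rank depends on the length used. Cela2a has 1723 exonic bases but a main transcript of 1070, and Prss2 has 815 by either length. Per main transcript Cela2a would lie above Prss2. 2210010C04Rik held 4.81%, 4.74% and 4.83%, with an SD of 0.0452 points. Try4 held 4.25%, 3.85% and 2.84%, and its close relative Try5 held 1.04%, 0.904% and 0.690%. Both were lowest in library 3, and the highest library held 1.496 times the share of the lowest in Try4 and 1.501 times in Try5. The other 8 trypsinogens had between 14 and 18857 counts per library, led by Try10 at 855 TPM. Prss1 was among the lowest of them, with 54, 69 and 122 counts. These genes resemble each other, and how many reads each lost to several-place mapping was not tested.

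Fat-digesting proteins held 17.7%, 19.3% and 19.01% of gene counts, a mean of 18.7% ± 0.849 (SD, n = 3). Pnlip held 7.51%, 8.61% and 7.14%, highest in library 2. Cel, the bile salt-dependent lipase, held 4.79%, 4.76% and 4.90%, with an SD of 0.0773 points. Pnliprp1, a lipase-related protein, held 2.50%, 2.698% and 3.55%, highest in library 3. Clps, the small cofactor that anchors Pnlip to fat droplets, held 2.30%, 2.69% and 2.79%. By counts Clps was 12th of all genes, and per exonic length it was 5th at 61415 TPM ± 5541, above Pnlip at 51117 TPM ± 4396. This order depends on the length used. Pnlip has 2195 exonic bases but a main transcript of 1487, and Clps has 611 by either length. Per main transcript Pnlip would lie above Clps. Pnliprp2 held 0.503%, 0.443% and 0.528%, and Pla2g1b, the secreted phospholipase A2, held 0.112%, 0.118% and 0.110%.

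The procarboxypeptidases, which trim amino acids from the C-terminus of peptides, held 11.03% ± 0.583 (SD, n = 3). Cpb1 held 5.09%, 5.05% and 5.13%, and Cpa1 held 4.80%, 4.41% and 5.18%. Cpa1 was lowest in library 2, and Cpb1 moved by 1.02-fold over the libraries. Per length the order changed, with Cpa1 at 39711 TPM ± 3558 above Cpb1 at 22448 TPM ± 482. Of the remaining hydrolases, Rnase1, the pancreatic ribonuclease, held 2.06%, 2.09% and 1.89%, and Klk1, a kallikrein protease, held 0.610%, 0.688% and 0.664%.

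Amylase, the starch-digesting enzyme, contributed little and varied most. The 7 listed amylase genes together held 0.316%, 0.365% and 0.0755% of gene counts. Amy2b carried most of it, with 90050, 103875 and 15863 counts, so library 3 lay far below the other two and the highest share was 7.19 times the lowest. The other 6 did not follow it. Amy1 had 3010, 3490 and 3866 counts and Amy2a5 had 2755, 3233 and 2790. Amy2a1, Amy2a2, Amy2a3 and Amy2a4 had between 215 and 2155 counts per library. GENCODE M21 classes this Amy2b identifier as an unprocessed pseudogene, and the amylase genes are near-identical copies on chromosome 3, so the sum over the family and its split between members are both uncertain. The part of several-place mapping in these values was not tested.

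Neighbours in the ranking were often closer to each other than to their own spread. Cel at 4.82% ± 0.0773, Cpa1 at 4.80% ± 0.382, 2210010C04Rik at 4.79% ± 0.0452 and Prss2 at 4.65% ± 0.135 (SD, n = 3) were separated by less than 1 SD of Cpa1, and their order by share of counts differed between libraries. Cpb1 at 5.09% ± 0.0393 lay below the Cpa1 value of library 3 as well. Ctrb1 lay above Cela2a in all 3 libraries, at 11.5% or more against 9.20% or less. Over all 37 enzyme genes the median SD of log2 CPM of all gene counts was 0.15, beside the 0.27 found over all genes outside the enzymes with a mean of at least 10 counts and the 0.18 of the 79 genes outside the enzymes over 1000 CPM.

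**Figure D2:**
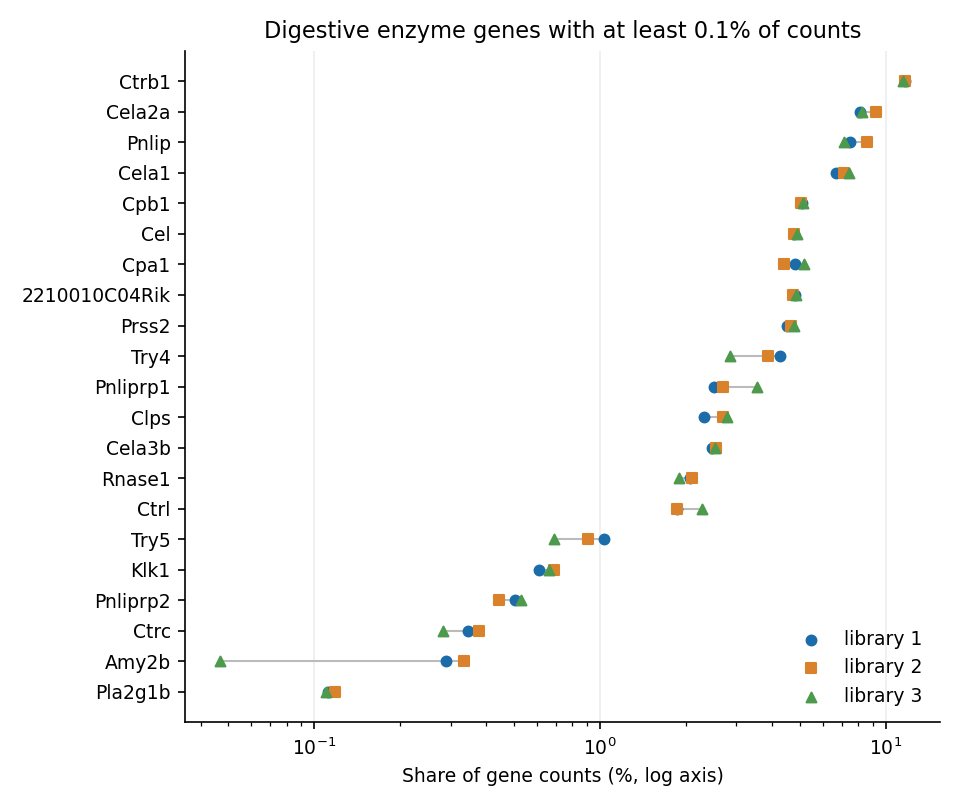
Share of gene counts (%, log axis) of 21 digestive enzyme genes with a mean of at least 0.1%, ordered by mean; 1 point per library, with a grey line from the lowest to the highest. The points of most genes nearly coincide, from 11.6% for Ctrb1 to 0.113% for Pla2g1b, and Amy2b spans 0.0466% to 0.335%.

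Because the PTF1 complex reads a pair of short motifs, an E-box (CANNTG) near a TC-box (TTTCCC), the promoters of the enzyme genes were searched for both on either strand. RefSeq promoters (build GRCm38.p6, 250 bases before to 50 after the start of the gene) were found for 30 of the 37 enzyme genes, 31 promoters in all. Both motifs with at most 30 bases between them were found in 8 of the 31 (25.8%), against 6.51% of all 32851 promoters of the table and 5.23% of those of detected genes. For TATAAA the numbers were 14 of 31 (45.2%) and 13.6%, for CANNTG alone 27 of 31 (87.1%) and 72.3%, and for TTTCCC alone 12 of 31 (38.7%) and 25.2%. The enzyme promoters include recent duplicates, which are not independent. None of 31 promoters of 19 listed acinar transcription factors held the close pair, and 4 of 88 promoters of the secretory machinery and 4 of 73 of the ribosomal proteins did. Promoters of granule and regenerating proteins held it in 3 of 12 (25%), a share like that of the enzymes, and TATAAA in 6 of 12 (50%). The 5 enzyme genes with more than 1% of counts and such a pair before their start are printed here to let the spacing be compared, 5′ to 3′ on the gene's strand, with the 2 motifs in capitals.
Ctrb1, chr8:111691190-111691225, minus strand: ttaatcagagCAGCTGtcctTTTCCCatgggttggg
Cela2a, chr4:141826074-141826134, minus strand: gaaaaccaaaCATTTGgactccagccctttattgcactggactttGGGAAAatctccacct
Cela1, chr15:100687975-100688029, minus strand: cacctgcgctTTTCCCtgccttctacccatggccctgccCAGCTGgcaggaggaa
Cel, chr2:28563453-28563499, minus strand: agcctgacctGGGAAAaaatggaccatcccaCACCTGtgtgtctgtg
Cpa1, chr6:30639170-30639214, plus strand: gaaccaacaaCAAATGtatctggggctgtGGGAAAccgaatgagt
In the pairs printed, the motifs lay 4 bases apart in Ctrb1, 29 in Cela2a, 23 in Cela1, 15 in Cel and 13 in Cpa1. Cela1 had 3 such pairs before its start, and only the pair nearest the start is printed. In Ctrb1 the E-box began 205 bases before the start, and in Cpa1 38 bases before it. Pnlip, Cpb1, 2210010C04Rik and Try4, which are among the first 10 genes by share of counts, had no TTTCCC in this window. A match describes these letters and shows no binding.

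The messages of the enzymes were short. Over the 21 enzyme genes with at least 0.1% of counts and a protein-coding model in GENCODE M21, the main transcript had a median length of 992 bases, against 3111 over 9044 detected nuclear protein-coding genes. The 3′ untranslated region accounted for much of the difference, with a median of 68 bases in the enzymes and 1085 in all detected genes. Median coding lengths were 801 and 1398 bases. Cpb1 and 2210010C04Rik were the exceptions, with models whose 3′ untranslated regions run to 1387 and 1367 bases. Weighted by per-length level, the mean transcript length of the whole pool was 1165 bases, and 1410 outside the enzymes. The last position of the codon was G or C in a median of 65.2% of enzyme codons and 60.3% over all detected genes, with Clps at 73.7% and Cpb1 at 49.8%. Multiplying per-length level by coding length put 85.2% of coding bases in the digestive enzymes.

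The enzyme genes were spread unevenly over the chromosomes. Chromosome 6, with 4.84% of the detected genes, held 14 of the 37 enzyme genes and 21.8% of gene counts ± 0.332 (SD, n = 3). Chromosome 8 held 14.4%, most of it Ctrb1. Chromosome 4 held 12.2%, with Cela2a, Cela3a, Cela3b and Ctrc, and chromosome 19 held 11.7%, with Pnlip, Pnliprp1 and Pnliprp2. Chromosomes 1, 9 to 13, 16, 18, X and Y held no listed enzyme gene. Outside the enzymes chromosome 7 led, with 24.3% ± 1.44 of the remaining counts, and Sycn, Zg16, Gp2, Dmbt1, Cuzd1 and Nupr1 lie on it.

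Outside the enzymes the largest group was the zymogen granule proteins. The 9 listed granule proteins and inhibitors held 18.1%, 21.02% and 20.4% of non-enzyme counts, a mean of 19.8% ± 1.56 (SD, n = 3), and 7 of them were among the 20 genes with the largest share outside the enzymes. Sycn, syncollin, a protein of the inner face of the granule membrane, had 60248, 89675 and 77907 CPM outside the enzymes, lowest in library 1. Per length it was the 8th gene of all at 41796 TPM ± 5596. Zg16, a lectin of the granule, had 47829, 53019 and 57990 CPM. Gp2, the main glycoprotein of the granule membrane, had 25697, 31181 and 27576 CPM. Dmbt1, a large scavenger receptor protein also called muclin, had 30224, 18899 and 27049 CPM, lowest in library 2. Cuzd1, a granule membrane protein, had 6920, 7274 and 4314 CPM, lowest in library 3. Serpini2, a serpin of the pancreas, had 4379, 4069 and 4866 CPM. Spink1, the inhibitor that blocks trypsin formed too early, had 3190, 4187 and 2999 CPM and 1454 TPM ± 186. Serpina1b alone of this list was not detected, with 9, 7 and 0 counts.

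The regenerating proteins, small secreted lectins, held 3.40%, 6.96% and 6.52% of non-enzyme counts, a mean of 5.63% ± 1.94 (SD, n = 3), and did not vary as one group. Reg1 made up nearly all of the list, with 33153, 67539 and 64200 CPM, and was lowest in library 1. Reg3d had 640, 1021 and 823 CPM. Reg2 and Reg3b, known to rise in pancreatitis, were high in library 2 only. Reg2 had 152, 703 and 149 CPM and Reg3b had 33.1, 321 and 41.9. Reg3a followed them with 23, 224 and 72 counts. Reg4 had no count in any library, which allows up to 3 counts or 0.480 CPM.

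Together, the 53 genes of the enzyme, granule and regenerating lists held 82.5%, 85.5% and 84.4% of gene counts and 91.6% ± 0.677 (SD, n = 3) of the per-length total. With these lists taken out, 670 genes were needed to reach 50% of what remained, beside 195 genes with only the enzymes taken out. That 195 rested partly on library 1, since the other two libraries alone gave 151.

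The listed genes of the machinery that makes secretory proteins were all detected but held a small share. These were 94 genes of endoplasmic reticulum folding, translocation and glycosylation, and vesicle transport. Over all 21927 protein-coding genes, 9055 were detected. The 94 genes together held 4.40%, 4.17% and 3.75% of non-enzyme counts, a mean of 4.11% ± 0.331 (SD, n = 3). The folding genes led at 2.33% ± 0.210. Pdia2, a protein disulfide isomerase typical of the pancreas, had 9462, 10196 and 8056 CPM and 1653 TPM ± 179. P4hb, the general protein disulfide isomerase, followed per length at 365 TPM ± 48.5, and Erp27, a partner protein without isomerase activity, at 115 TPM ± 7.59. The chaperone Hspa5, also called BiP, lay at 101 TPM ± 26.1. Pdia2 was thus over P4hb in every library, at 1803, 1701 and 1455 TPM against 421, 333 and 342.

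Translocation and glycan transfer genes held 0.952% ± 0.0920 (SD, n = 3), with Ssr4, of the translocon-associated complex, at 80.2 TPM ± 4.97, Tram1 at 68.7 TPM ± 6.19 and Sec61b, of the protein channel, at 63.1 TPM ± 10.0. Vesicle coat and cargo receptor genes held 0.831% ± 0.0326. Their leader was Tmed6, a cargo receptor of the p24 family, at 365, 325 and 419 TPM, and Tmed11 of the same family followed at 79.9 TPM ± 4.68 and Mcfd2, a cargo receptor subunit, at 71.3 TPM ± 3.81. Tmed6 thus stood above every other listed gene of vesicle transport in each library, and its relatives Tmed2, Tmed3 and Tmed10 lay between 20.02 and 45.95 TPM per library.

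Among the genes of protein synthesis, the 80 listed cytosolic ribosomal protein genes, 74 of them detected, held 5.81%, 6.24% and 7.18% of non-enzyme counts, a mean of 6.41% ± 0.699 (SD, n = 3). Rpl41 led per length at 633 TPM ± 49.0, before Rps3a1 at 487 TPM ± 46.1 and Rpl32 at 409 TPM ± 48.3. The list leaves out the stalk proteins Rplp0 and Rplp1, which lay at 508 TPM ± 42.3 and 1281 TPM ± 72.8, so Rplp1 was above Rpl41. That gap depends on the length used. Rpl41 has 1168 exonic bases but a main transcript of 582, and Rplp1 has 499 by either length. Rpl3l, Rpl39l and Rpl10l, copies known from muscle and testis, had at most 2 counts in any library. Rps10 and Rpl24, which all cells use, had 11 to 29 and 1 to 8 counts, and as ribosomal protein genes often have near-identical processed copies elsewhere in the genome, the part of several-place mapping in these values was not tested. The 27 translation factor genes held 2.33% ± 0.245. Eef1a1, the factor that brings tRNA to the ribosome, had 1064, 922 and 1224 TPM, Eef2, which moves the ribosome along, 443, 382 and 584 TPM, and Eef1b2 96.7, 93.1 and 119 TPM. All 3 were highest in library 3.

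The amino acid supply list, 27 of 30 genes detected, held 0.917% ± 0.0747 (SD, n = 3). Gatm, the first enzyme of creatine synthesis, led at 178 TPM ± 15.2, and Gamt, the next enzyme of that pathway, lay at 102 TPM ± 8.64. Asns, which makes asparagine, lay at 109 TPM ± 9.98 and Phgdh, the entry to serine synthesis, at 107 TPM ± 13.3. The 20 aminoacyl-tRNA synthetase genes were all detected and held 0.316% ± 0.0163. Wars, the tryptophan enzyme, had 24.3, 27.7 and 47.9 TPM and was highest in library 3, whereas Nars, for asparagine, had 31.2, 22.9 and 19.6 TPM and Mars1, for methionine, 25.6, 23.2 and 18.7 TPM, both highest in library 1.

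**Figure D3:**
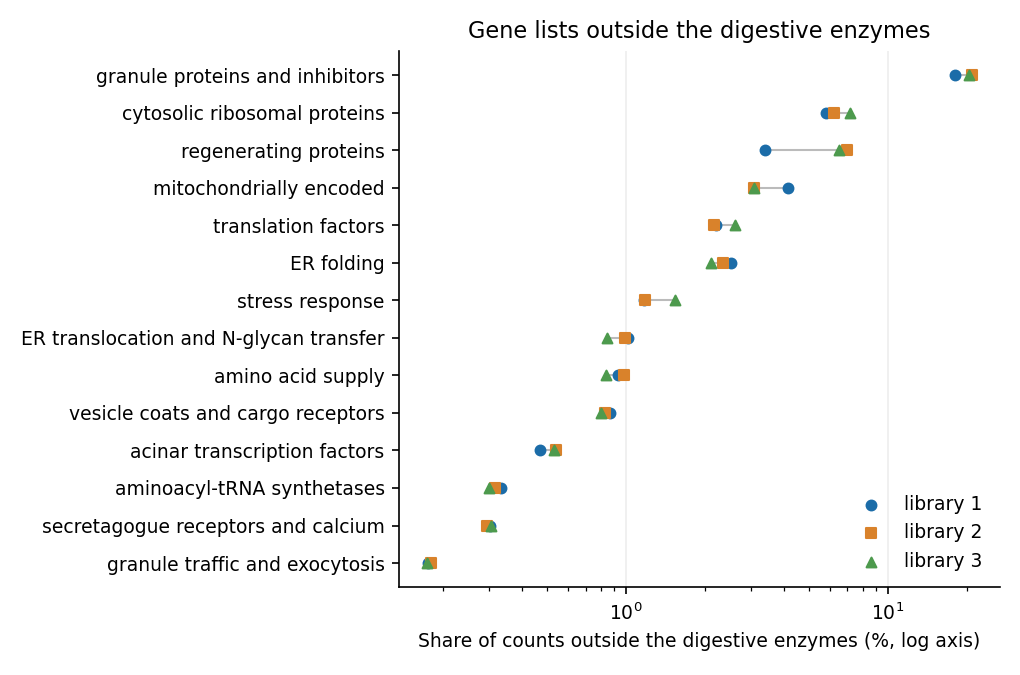
Share of counts outside the digestive enzymes (%, log axis) held by 14 gene lists, ordered by mean; 1 point per library, with a grey line from the lowest to the highest. Granule proteins lead at 19.8% on average and granule traffic genes come last at 0.176%; the regenerating proteins have the widest line, from 3.40% to 6.96%.

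The 13 protein genes of the mitochondrial genome held 4.15%, 3.07% and 3.09% of non-enzyme counts. Of the 13, 12 were highest in library 1, as were 55.5% of all genes of at least 10 CPM. That threshold was not applied to the 13 genes. mt-Co1, of cytochrome oxidase, had 16775, 11942 and 12630 CPM, mt-Cytb, of complex III, had 10007, 7230 and 7493, and mt-Nd1, of complex I, had 4240, 3505 and 3066. Genes of the same genome differed widely per length, with mt-Co1 at 2773 TPM ± 700 (SD, n = 3) and mt-Co2 of the same enzyme complex at 29.0 TPM ± 10.7. mt-Co3 and mt-Atp6 were likewise low at 15.3 TPM ± 5.55 and 10.9 TPM ± 2.49. Copies of mitochondrial sequence in the nuclear genome make reads map to several places, and their part in these low values was not tested.

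Of the other genes with the largest shares outside the enzymes, Tpt1, a growth-related protein whose message is abundant in most cells, had 5533, 6128 and 6189 CPM. Tff2, a trefoil peptide that protects mucosa and stood in the duct list, had 4089, 5700 and 6856 CPM and 2916 TPM ± 683 (SD, n = 3), 25th of all genes per length. Nupr1, a stress-responsive nuclear protein, had 4635, 5218 and 6709 CPM, and like Tff2 was highest in library 3. The long non-coding RNA gene 1810028F09Rik had 2656, 3277 and 2819 CPM. The identifier ENSMUSG00000119584, which has no entry in GENCODE M21, had 53905, 61460 and 49014 counts and ranked 10th outside the enzymes. Malat1, a nuclear long non-coding RNA, had 43.8, 13.7 and 12.1 TPM, highest in library 1, beside Norad with a mean of 9.63 TPM and Neat1 with 7.55.

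All 26 listed acinar transcription factors had counts in every library, and 24 were detected. Their summed share was 0.469%, 0.540% and 0.530% of non-enzyme counts. Xbp1, which drives the unfolded protein response and the growth of the endoplasmic reticulum, was the highest per length with 137, 142 and 171 TPM. Bhlha15 followed with 69.5, 80.7 and 86.0 TPM, and Atf4, the translation stress factor, with 51.6, 53.1 and 48.8 TPM. Rbpjl, the acinar subunit of PTF1, had 47.5, 54.5 and 36.8 TPM. These 4 stood above all others in every library.

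The other PTF1 partners were far lower. Ptf1a had 7.35, 10.4 and 8.38 TPM, so Rbpjl was over it in each library. Rbpj, the widespread relative that Rbpjl replaces in mature cells, had a mean of 0.706 TPM ± 0.0839 (SD, n = 3). The E-protein genes Tcf3 and Tcf12 had means of 2.08 TPM ± 1.02 and 1.21 TPM ± 0.275. Tcf3 was highest in library 1, at 3.24 TPM against 1.40 and 1.59.

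Besides Ptf1a, 7 of the factors named here lay between 7.87 and 12.7 TPM on average. Gata4, an endodermal factor, lay at 12.7 TPM ± 1.45 (SD, n = 3), Foxa2 at 10.1 TPM ± 0.534 and Foxa3 at 8.98 TPM ± 1.48, both pioneer factors of endoderm. Creb3l1, a membrane-bound factor of the secretory stress response, lay at 9.01 TPM ± 1.29 and Atf6, another such factor, at 8.30 TPM ± 1.64. Nr5a2, a nuclear receptor that works with PTF1, lay at 7.87 TPM ± 0.559. Gata4 lay above these other 5 and Foxa2 above Nr5a2 in every library, whereas the ranges of Foxa3, Creb3l1, Atf6 and Nr5a2 overlapped. Nr0b2, a repressor of nuclear receptors, had 5.10, 6.09 and 14.1 TPM and was the member that varied most among these, highest in library 3.

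Lower still were Myrf, a membrane-bound factor, at 4.46 TPM ± 0.560 (SD, n = 3), Hnf4a, a nuclear receptor of liver and gut, at 4.21 TPM ± 0.955, Creb3l2 at 2.73 TPM ± 0.379 and Gata6 at 2.33 TPM ± 0.396. Mecom had 0.964 TPM ± 0.324. Prox1, a homeobox factor of the embryonic pancreas, had 0.451 TPM ± 0.255, Zbtb20 0.412 TPM ± 0.205 and Esrrg, an oestrogen-related receptor, 0.331 TPM ± 0.0917. Zfp697 with 28 to 43 counts was under 1 CPM of all gene counts in at least 1 library. Hnf4g with 7 to 9 counts was under it in all 3.

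**Figure D4:**
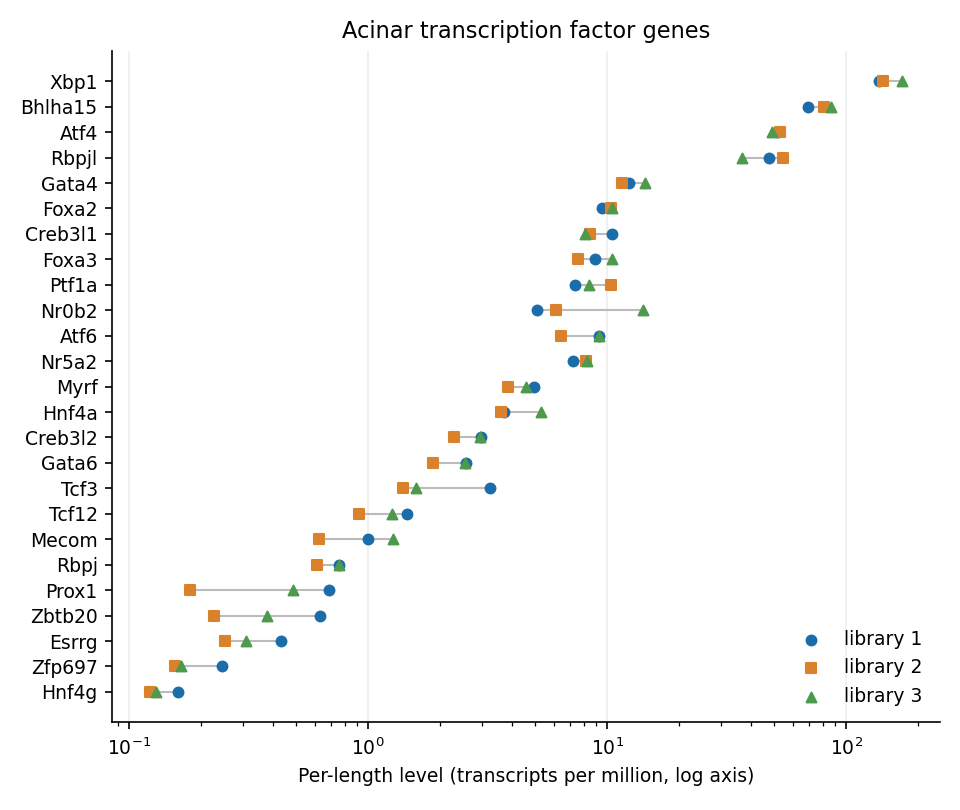
Per-length level (TPM, log axis) of 25 acinar transcription factor genes, ordered by mean; 1 point per library, with a grey line from the lowest to the highest. Xbp1, Bhlha15, Atf4 and Rbpjl lie between 36.8 and 171 TPM and the others below them in every library.

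The genes of stimulus and release held little RNA. The 25 secretagogue receptor and calcium genes held 0.302%, 0.293% and 0.305% of non-enzyme counts, and the 20 granule traffic genes 0.175%, 0.180% and 0.173%. These sums were even, but the members were less so. Over detected members, the median SD of log2 values was 0.25 among the receptor and calcium genes and 0.14 among the granule traffic genes. Over all genes outside the enzymes it was 0.23 at 10 to 100 CPM and 0.17 at 100 to 1000 CPM. Cckar, the cholecystokinin receptor of the mouse acinar cell, had 114, 110 and 114 TPM, an SD of 2.25. It stood well above Chrm3, the main muscarinic receptor, at 2.22, 1.57 and 2.35 TPM, and above Cckbr, which had 26, 47 and 19 counts. Cabp2, a calcium-binding protein, had 68.2, 81.2 and 88.9 TPM and Atp2a2, a calcium pump of the endoplasmic reticulum, 17.96, 12.4 and 15.2. Rab3d, the small GTPase of the zymogen granule, had 44.6, 37.8 and 41.8 TPM, and over the libraries it moved by 1.03-fold in CPM outside the enzymes. Vamp8, the granule's membrane fusion protein, had 13.6, 14.7 and 16.9 TPM, and Sytl1, a Rab effector, 11.5, 11.7 and 11.6. Sctr, the secretin receptor, had 104, 63 and 8 counts and was lowest in library 3.

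The stress response list held 1.17%, 1.18% and 1.54% of non-enzyme counts and was led per length by Nupr1 at 677 TPM ± 132 (SD, n = 3). Herpud1 and Sel1l, both of the pathway that removes misfolded proteins from the endoplasmic reticulum, lay at 131 TPM ± 34.0 and 101 TPM ± 29.8. All 3 were highest in library 3. Ddit3, a factor of prolonged stress also called CHOP, was low with 83, 57 and 52 counts, and Trib3 had 26, 38 and 21. The list of cytoskeleton and glycolysis reference genes also holds genes of neither group. Such genes led it, Tpt1 at 770 TPM ± 35.0, before Fau at 157 TPM ± 27.9 and Ubb at 115 TPM ± 18.3. The list as a whole held 0.953% ± 0.0130 of non-enzyme counts. Cell cycle genes were low, with 3 of 13 detected: Pcna at 4.71 TPM, Ccnd1 at 1.57 and Mcm2 at 1.11. Mki67, which marks dividing cells, had 144, 9 and 27 counts.

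Transcripts known from other pancreatic cells were present in all 3 libraries. The 18 duct genes summed to 5319, 6652 and 7927 CPM outside the enzymes in libraries 1 to 3. Most of this was Tff2, at 4089, 5700 and 6856 CPM. Tff2 rose from library 1 to 3 as well, so the order of the sums need not hold for the other duct genes. Without Tff2 the leading members were Muc1, a membrane mucin, at 46.3, 48.7 and 62.9 TPM and Spp1, osteopontin, at 62.4, 40.6 and 41.3 TPM. Krt19, the duct keratin, had 14.7, 8.02 and 11.5 TPM, below Krt18 and Krt8, keratins that acinar cells also use, at 54.6 TPM ± 11.4 and 51.3 TPM ± 9.21 (SD, n = 3). Cftr, the duct's chloride channel, had 28, 30 and 27 counts, under 1 CPM of all gene counts in every library, and Cldn18 had no count in any. Islet genes summed to 2230, 1841 and 1412 CPM. Ins2 and Ins1, the insulin genes, had 8444, 6806 and 5591 counts and 1817, 1647 and 1722 counts. Per length Ins2 was 68th of all genes, at 241 TPM ± 60.2. Iapp, co-secreted with insulin, had 1107, 844 and 545 counts and Gcg, glucagon, had 1041, 811 and 931. Ppy, pancreatic polypeptide, had 921, 160 and 29 counts, and its libraries differed far more than those of the other hormones.

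Blood, vessel and connective tissue markers differed by library. T, B and plasma cell markers summed to 713, 179 and 4.39 CPM, and 0 of the 17 were detected in the sense used here. Of the 17, 16 had more than 3 counts in some library, and all 16 were highest in library 1. A marker could pass this floor through library 1 alone. The 55.5% over genes of at least 10 CPM is at another threshold and no like measure for these markers. Igkc, the kappa light chain, had 1142, 441 and 0 counts, Ighm, the IgM heavy chain, 1404, 353 and 12, and Cd79a, of the B cell receptor, 248, 53 and 6. Mzb1 had at most 1 count in any library. Myeloid markers summed to 1044, 195 and 137 CPM, with 16 of 18 highest in library 1. The 55.5% is no like measure for them either. Cd74, the invariant chain of antigen presentation, had 2164, 318 and 132 counts, Lyz2, macrophage lysozyme, 1045, 371 and 279, and H2-Ab1 1003, 164 and 67.

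Stellate and fibroblast markers summed to 609, 126 and 180 CPM and endothelial markers to 619, 124 and 190. Every member of both lists was highest in library 1. Over all genes outside the enzymes with at least 10 CPM, the share highest in library 1 was 55.5%. That threshold was not applied to these markers, so it is no like measure for them. Acta2, smooth muscle actin, had 476, 31 and 17 counts, Sparc, a matrix protein, 660, 123 and 264, and Dcn, decorin, 738, 221 and 317. Plvap, of fenestrated vessels, had 811, 195 and 353 counts, Pecam1 864, 103 and 229, and Eng 434, 81 and 146. Red cell genes were scarce in all libraries, with Hbb-bs at 168, 14 and 80 counts, Hba-a1 at 77, 14 and 45 and Hbb-bt at 22, 4 and 5. Of the 8 adipocyte genes, 6 had at most 1 count in any library, Adipoq and Lep among them at 0, which leaves Fabp4 at 281, 82 and 96 counts and Plin4 at 14, 50 and 78. Of the neural and mesothelial markers, Msln, mesothelin, had 50, 3 and 4 counts and S100b, a glial calcium-binding protein, 18, 14 and 14. Of the liver and gut genes only Ttr, also made in islets, was above 100 counts, with 1111, 778 and 718. Lyz1 had 68, 28 and 12 counts and Alb 60, 60 and 45.

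**Figure D5:**
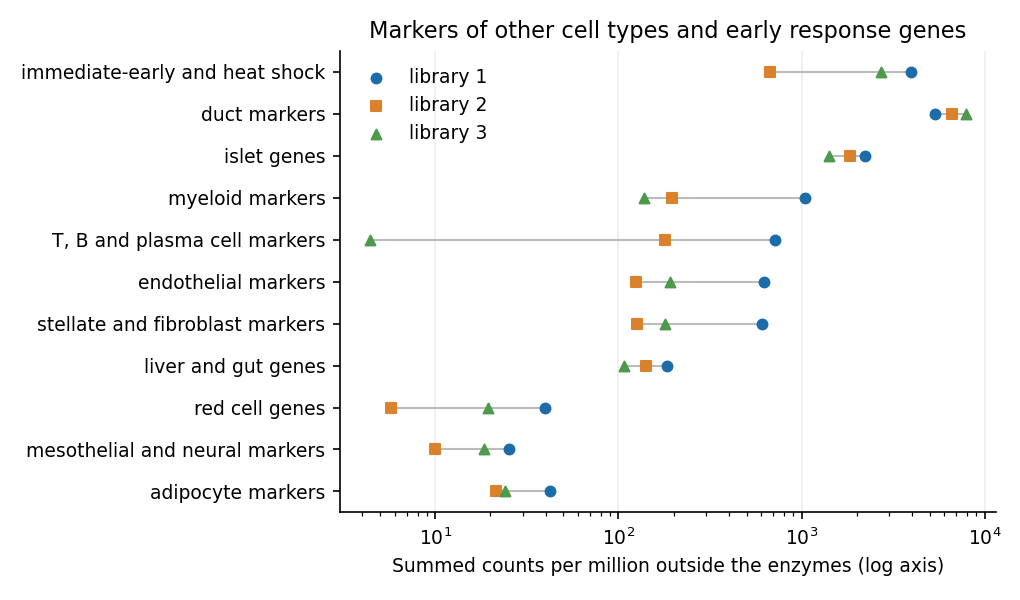
Summed CPM outside the digestive enzymes (log axis) for markers of other cell types and for immediate-early and heat-shock genes; 1 point per library, with a grey line from the lowest to the highest. Library 1 is highest for every list but the duct markers, whose sum is mostly Tff2. Library 2 is lowest for the immediate-early genes, at 673 CPM beside 3972 in library 1.

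Immediate-early genes are transcribed within minutes of a stimulus, and heat-shock genes answer protein damage. The list that joins both, 21 genes, summed to 3972, 673 and 2712 CPM. In it, 15 of the 16 detected members were lowest in library 2, against 38.4% of all genes of at least 10 CPM outside the enzymes. The thresholds differ, as detected means at least 1 CPM of all gene counts. Of all 1289 genes outside the enzymes with 100 to 1000 CPM, 58 (4.5%) ranged over more than 2-fold. Protein-coding genes with a mean of at least 100 CPM, 1349 in all, were ranked by the SD of log2 values. The 10 with the largest SD were Fos, Junb, Egr1, Cd74, Reg3b, Jun, Zfp36, Gal, Reg2 and Sgk1. Of these 10, 5 stood in the immediate-early list, which can hold at most 21 of the 1349. Fos, a subunit of AP-1, had 446, 15.04 and 264 CPM, an SD of 2.61 on the log2 scale. Jun, its partner, had 825, 82.4 and 534 CPM and Junb, a relative, 260, 9.76 and 93.1. Egr1, a growth-factor response gene, had 502, 31.8 and 362 CPM and Zfp36, which destabilises cytokine messages, 178, 21.6 and 141. All 5 were lowest in library 2 and highest in library 1.

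Among the rest of the list, Ier2 had 431, 144 and 407 CPM and Btg2, an antiproliferative gene, 451, 135 and 474. Gal, the neuropeptide galanin, ordered the libraries otherwise, with 79.8, 277 and 484 CPM. Sgk1, a kinase induced by steroids and stress, had 230, 106 and 485 CPM, highest in library 3. At the other end, the 5 genes with the smallest SD were Osbpl2, a lipid transfer protein, Rab1b, a GTPase between endoplasmic reticulum and Golgi, Srp68, of the signal recognition particle, Tmem259, a membrane protein of the endoplasmic reticulum, and Immt, of the mitochondrial inner membrane. Each moved by about 1.01-fold over the libraries in CPM outside the enzymes, and by 1.10- to 1.12-fold in share of gene counts. Srp68, for example, had 255, 254 and 257 CPM.

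Over all 12695 genes outside the enzymes with a mean of at least 10 counts, the median SD of log2 values was 0.27, against 0.12 from counting error alone. Without library 1 it was 0.18, from 2 libraries. The median was 0.17 for the 1289 genes with 100 to 1000 CPM, where counting error alone gives 0.04. For the 7189 genes with 10 to 100 CPM the medians were 0.23 and 0.10.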

How the data were processed

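Poly-A enriched RNA of 3 control acinar preparations was sequenced, and the authors deposited whole-number counts per Ensembl gene identifier, unstranded and for each strand. The submitters' processing notes name STAR 2.7.10a and the builds GRCm39 and mm39. The annotation and the setting of strand are not given in the sources used here. In this layout reads with several mapping places enter no gene count. The strand columns held 50.1% to 50.2% of counts on the forward strand, so the unstranded counts were used, in which reads of overlapping and antisense genes cannot be told apart. The 4 rows outside genes were left out.

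Symbols, classes, chromosomes and exonic lengths came from GENCODE M21 of build GRCm38, which held 52133 of the 55414 identifiers (94.1%) and at least 99.8% of counts. Because that build differs from the authors', the only coordinates given are those of promoters from RefSeq (GRCm38.p6). The 35 gene lists and the members described were chosen with earlier results of these data known. Of 528 listed symbols 5 had no identifier.

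Shares, CPM and TPM were computed from the deposited counts in Python 3.11.15. Log2 values used CPM outside the enzymes plus 0.5. No test between groups was made, since there is 1 group. Gene counts of 31265033, 31019500 and 34041901 gave 95% Clopper-Pearson intervals of list shares at most 0.0165 percentage points wide on either side, and up to 3 counts were taken as the floor of a count of 0. Intervals and floors cover counting error only, as the labels name no molecular identifiers. No library was a copy of another, with a chi-square per degree of freedom of at least 40.7 between any 2. The script that computes the SD of log2 values was checked on simulated data of known spread. Scaling alternatives used edgeR 4.0.16 and DESeq2 1.42.0 in R 4.3.3.

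Named were all enzymes, with values for those of at least 0.1%, the 5 markers, the 20 genes with the largest share outside the enzymes, in each other list the 3 members highest per length and defining members at the floor, all acinar transcription factors, and the 10 most and 5 least variable protein-coding genes of at least 100 CPM. Cela3a, Try10, Prss1, Amy1 to Amy2a5, Hspa5, Gamt, Chrm3, Cckbr, Sctr, Ddit3, Trib3, Mki67, Krt19, Cftr, Ppy, Gcg, Rps10, Rpl24, Rplp0, Rplp1, S100b, the low mitochondrial genes and further members of the regenerating and transport lists were named after their values were seen. A few genes that this rule would name are not reported here.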

Additional observations from a re-analysis of the deposited data

How the results depend on the processing

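The 8 results were recomputed under 62 alternatives, of which 7 (per length of the principal transcript, and a wider ribosomal list) were chosen after seeing the data, and 41 stayed within 1 SD of a share or within 1.5 times a count or a median. The digestive enzyme share of 78.7% became 43.7% with all deposited reads as denominator, 84.1% with the granule and regenerating proteins added to the list, 83.3% per exonic length, 82.5% per length of the principal transcript, and 76.6% and 76.5% on the strand columns 3 and 4. Leaving out 1 library gave 78.1% to 79.2%. The secretory machinery share of 4.11% of non-enzyme counts became 2.81% per exonic length, 3.08% per principal transcript, 5.51% with the widened list and 3.78% and 3.75% on columns 3 and 4. The ribosomal share of 6.41% became 8.63% with the widened list, 10.6% per principal transcript and 7.25% with the wider ribosomal list. The mitochondrial share of 3.44% became 5.08% per exonic length and 4.59% with the widened list. The widened list takes more genes out of the denominator, and the per-length scale weights short genes more, by construction. The 195 genes holding 50% of non-enzyme counts became 7 per exonic length, 14 per principal transcript and 670 with the widened list, and 151 to 220 with 1 library left out. The 9270 detected genes became 15460 with at least 1 count in every library. The median SD of log2 values of 0.27 ran from 0.18 to 0.26 with 1 library left out, lowest without replicate 1, and was 0.24 with TMM factors. No paired analysis was possible because a single group was described and no test was made. The share of abundant genes with a hydrophobic N-terminal stretch was not run, since no protein sequences were used here.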

Other observations

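By gene class, protein-coding genes held 99.3% of gene counts ± 0.220 (SD, n = 3). Of 9902 long non-coding RNA genes in the annotation, 107 were detected, and together the class held 0.890% ± 0.0900 of non-enzyme counts. Pseudogenes held 0.317% ± 0.169 of gene counts, most of it the Amy2b identifier at 0.223%, and 88 of 13494 were detected. The 494 immunoglobulin and T cell receptor segments, none of them detected, held 0.0882%, 0.0231% and 0.000563% of non-enzyme counts in libraries 1 to 3.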
